A study of Mus musculus with 29 samples.

Results

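Hindlimb muscle RNA of calorie-restricted mice on the diet labelled soy was compared with that of control mice. The comparison used the 7 muscle libraries whose labels read control (4 mice) or soy (3 mice), out of 14 muscle libraries and 29 libraries in the whole series. Members were chosen by their diet and tissue labels alone, and every gene in the table was examined. All mice were C57BL/6 males bought at 14 weeks of age, fed chow freely at first and placed at random on their diet at 4 months. Control mice then received 95% of the free intake, 13.6 kcal per day, so the controls were also mildly limited in food. The soy mice received 60% of it, 8.6 kcal per day, as did the mice of the fish (3 libraries) and lard (4 libraries) groups, which served here to estimate the spread and as a description. The labels name the soy, fish and lard diets but give no diet composition for the individual libraries, and lower energy and a changed diet therefore cannot be told apart in soy against control. Each library came from the whole hindlimb musculature of 1 mouse, so fast and slow muscles, vessels, nerves, fat and blood are sampled together. The genes were counted as reads on exons, and levels are given as CPM, counts scaled to a fixed library total, after normalisation by the trimmed mean of M-values.

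Skeletal muscle is the body's main protein store and a large consumer of glucose and fat. When energy is short, falling insulin and rising glucocorticoid release the FOXO and glucocorticoid receptor programmes, and muscle can then break down its own protein, oxidise branched-chain amino acids and export glutamine and alanine, while synthesis of matrix and growth-related proteins is costly and is often lowered. The classic readouts are the ubiquitin ligases Fbxo32 (atrogin-1) and Trim63 (MuRF1), the sestrins, the mTORC1 inhibitor Ddit4, and the enzymes of amino acid and glycogen turnover.

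Exon reads ran from 13464365 to 15989571 per library over the 7 libraries, which limits precision mainly for genes of a few CPM. The muscle label was borne out by its defining genes: the 20 mature muscle genes summed to between 159574 and 350897 CPM, and Myh4, the fast IIB myosin, lay between 18946 and 79792 CPM. The control muscles of mice 1071 and 1120 stood apart from the rest. On the first principal component, with 31.58% of the variance of 14 libraries, they lay at -59.81 and -68.07, and the 3 soy libraries between -10.16 and 17.56. They also carried blood cell reads: the 20 neutrophil genes summed to 338 and 1228 CPM there, against 8.12 to 13.5 CPM in control mice 1095 and 1121 and 4.29 to 8.63 CPM in the soy libraries. The 19 matched erythroid genes summed to 2284 and 7412 CPM, against 326 to 694 and 375 to 1001 CPM, and no member of either list was at 0 over the 7 libraries. The neutrophil granule gene S100a9 shows the contrast most plainly, at 99.6 and 353 CPM in mice 1071 and 1120 and from 0.0671 to 0.151 CPM in the other 5 libraries. Bone and marrow genes were high in the same mice. The 14 bone and cartilage markers summed to 72.8 and 199 CPM there, against 29.2 to 33.1 CPM in the other controls and 19.8 to 39.3 CPM in soy muscle. Bglap, the osteocalcin gene of bone-forming cells, read 5.54 and 27.5 CPM, was at 0 in the other controls and reached at most 0.0753 CPM in soy muscle. Mpo, the myeloperoxidase gene of marrow progenitors of neutrophils, read 11.8 and 43.6 CPM and was at 0 in the other 5 libraries, and the 12 myeloid progenitor genes summed to 93.1 and 200.4 CPM against 67.3 to 72.8 CPM in the other controls, with every soy library below mouse 1071. The 16 proliferation genes were also higher in these mice, at 82.7 and 177 CPM, against 39.0 to 41.8 CPM in the other controls and 39.5 to 40.7 CPM in the soy libraries. Mouse 1071 differed in another way too: its 13 mitochondrially encoded respiratory genes summed to 67410 CPM, against 161282 to 232648 CPM in the other 6 libraries. The counts over all genes, and many list and gene results, are given with all 4 controls and again without these mice. Where no second value follows, the value is with all 4 controls only. In such bulk RNA, fewer cells of a type and less RNA per cell cannot be told apart.

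**Figure D1:**
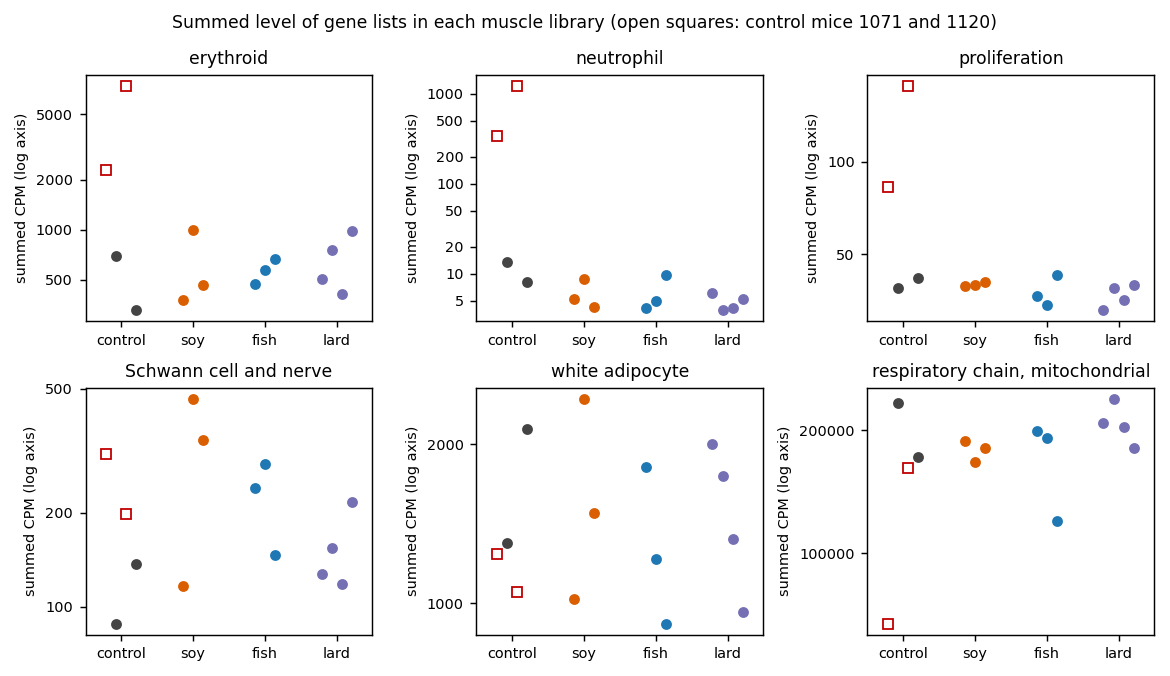
Summed normalised CPM (log axis) of 6 gene lists in each of the 14 muscle libraries by diet label; each point is 1 library and open squares are control mice 1071 and 1120. The neutrophil sum is 338 and 1228 CPM in those mice and at most 13.5 CPM in the other controls, and the Schwann cell sum is highest, at 464 CPM, in soy mouse 1073.

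With all 4 controls, none of 13104 genes tested passed an adjusted p of 0.05 in edgeR's quasi-likelihood test (0% of the genes), and the smallest adjusted p was 0.0516. At an unadjusted p under 0.05 there were 2285 genes, 17.4% of those tested, of which 1036 (7.91%) were higher and 1249 (9.53%) lower in soy muscle. DESeq2's Wald test on the same counts passed 242 genes, 126 higher and 116 lower, and limma-voom passed 0. Without mice 1071 and 1120, 2 of 13207 genes (0.0151%) passed in edgeR, both lower in soy muscle: Igfn1 and Mest. There were then 1286 genes (9.74%) at an unadjusted p under 0.05, 677 (5.13%) higher and 609 (4.61%) lower, while DESeq2 passed 93 genes and limma-voom 0. The sets at an unadjusted p under 0.05 shared 694 genes, 30.4% of the set with all controls and 54.0% of the set without the 2 mice. All 694 kept their direction, 373 higher and 321 lower, in 2 fits that share their soy and 2 control libraries. Leaving out 1 library at a time from the full comparison gave between 0 and 9 calls. Those 9 came without control 1095 (8 higher, 1 lower) and, in a set that shared Sh3rf2 with it, without control 1121 (7 higher, 2 lower), while 1 came without control 1120 (Mest), and 0 without control 1071 or any soy mouse. In the authors' deposited table for this comparison, 799 of 14072 genes with a p-value had one under 0.05, with no adjustment.

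**Figure D2:**
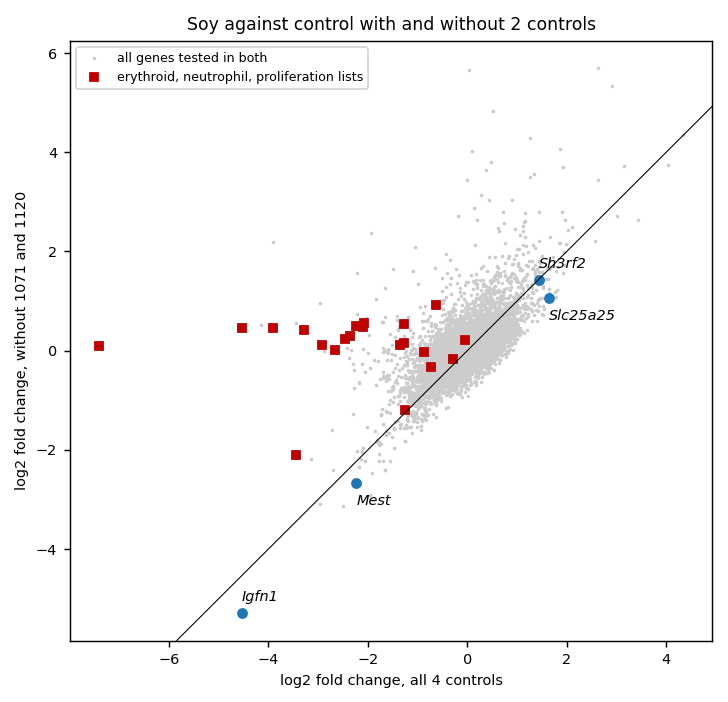
Log2 fold change of soy against control with all 4 controls (x axis) and without control mice 1071 and 1120 (y axis); each point is a gene tested in both, and the line marks equal values. Squares are genes of the erythroid, neutrophil and proliferation lists, many of them left of the line and others, such as Tpx2 (-1.24 and -1.19), on or near it; Igfn1 and Mest are far below 0 on both axes.

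Igfn1 (chr1:135953578-136006342, GRCm38, the deposited gene span), which encodes a sarcomere protein of the Z-disc with immunoglobulin and fibronectin domains, had the largest difference of the genes named here apart from blood markers. Its level was 20.9, 71.6, 47.9 and 304 CPM in control mice 1071, 1095, 1120 and 1121, a mean of 111 ± 130 CPM (SD, n = 4). In soy mice 1065, 1073 and 1141 it was 2.55, 7.01 and 4.67 CPM, a mean of 4.75 ± 2.23 CPM (SD, n = 3). Every control therefore lay above every soy library, although the controls ranged widely and mouse 1121 was far above the rest. The log2 fold change was -4.54 (SE 0.83), a 23.2-fold lower mean, with an edgeR adjusted p of 0.137. Without mice 1071 and 1120 it fell by 5.29 on the log2 scale (SE 0.63, edgeR adjusted p = 0.036). With mouse 1121 also left out, the difference was -3.91 with an edgeR adjusted p of 0.107, and the adjusted p lay between 0.0725 and 0.153 without any 1 of the 3 soy mice, so these libraries each end the call when left out. It was also lost with the 5 libraries fitted alone (0.363) and with library number as a block (0.467). In the comparison with all 4 controls the reverse held for mouse 1121: without that mouse alone Igfn1 passed, at -3.29 (SE 0.52, edgeR adjusted p = 0.036). The fish and lard libraries ranged from 2.47 to 15.5 CPM, below every control as well. The deposited RPKM (reads per kilobase of exon at a fixed library total), which allows for gene length, was 2.03 to 32.8 in controls and 0.249 to 0.842 in soy muscle.

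Mest (chr6:30723547-30748455), an imprinted gene expressed from the paternal allele and known from fat tissue growth and embryonic mesoderm, was the other gene that passed. Its level was 10.9, 8.74, 2.79 and 19.8 CPM in control mice 1071, 1095, 1120 and 1121 (10.6 ± 7.05, SD, n = 4) and 2.55, 2.78 and 1.36 CPM in soy mice 1065, 1073 and 1141 (2.23 ± 0.765, SD, n = 3). The groups did not overlap, but control 1120 was only just above the highest soy library. The log2 fold change was -2.23 (SE 0.48, edgeR adjusted p = 0.137) with all controls, and without mice 1071 and 1120 Mest fell by 2.66 on the log2 scale (SE 0.34, edgeR adjusted p = 0.0392). Leaving out mice 1071 and 1120 removed the control of lowest Mest together with its blood reads. Without mouse 1121 as well, the difference was -1.96 (edgeR adjusted p = 0.207). The call was likewise lost without any 1 soy mouse (0.0725 to 0.153), with the 5 libraries alone (0.395) and with library number as a block (0.467). Fish and lard libraries were in the soy range or a little above it, from 2.10 to 3.95 CPM. Unlike for Igfn1, they were not all below the controls. Lard mice 1100, 1102 and 1130, at 3.95, 3.53 and 3.75 CPM, lay above control 1120. Mest overlaps Copg2 on the opposite strand, and since the sources used here do not say whether counting used strand, reads of the overlap cannot be assigned to one gene.

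The sequences just upstream of the 2 genes that passed, and of the glycogen gene Ppp1r3c that follows below, are shown as a description. They are the 250 bases before the RefSeq transcription start, 5′ to 3′ on the gene's strand, in GRCm38.p6; capitals mark a match, on either strand, to one of the searched motifs.
Igfn1, chr1:136006343-136006592, minus strand: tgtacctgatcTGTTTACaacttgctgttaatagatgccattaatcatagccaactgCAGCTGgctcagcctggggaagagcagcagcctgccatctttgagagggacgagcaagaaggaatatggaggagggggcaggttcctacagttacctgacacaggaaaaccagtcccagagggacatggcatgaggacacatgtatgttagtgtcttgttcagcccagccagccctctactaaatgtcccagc
Mest, chr6:30733256-30733505, plus strand: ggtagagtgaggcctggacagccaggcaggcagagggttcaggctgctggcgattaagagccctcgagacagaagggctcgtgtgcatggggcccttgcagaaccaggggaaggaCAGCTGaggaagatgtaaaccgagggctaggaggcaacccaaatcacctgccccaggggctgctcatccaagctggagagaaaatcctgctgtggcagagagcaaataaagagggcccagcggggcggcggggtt
Ppp1r3c, chr19:36736605-36736854, minus strand: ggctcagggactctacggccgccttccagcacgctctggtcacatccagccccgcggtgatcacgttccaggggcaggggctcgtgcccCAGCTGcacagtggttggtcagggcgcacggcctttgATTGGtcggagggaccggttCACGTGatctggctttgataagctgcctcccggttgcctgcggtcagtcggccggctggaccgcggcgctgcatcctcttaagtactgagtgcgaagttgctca

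All 3 windows held the myogenic E-box letters CAGCTG, which 13% of the 32851 windows of this kind in the table hold. In Igfn1 they lay at -193 to -188 from the start, in Mest at -135 to -130 and in Ppp1r3c at -161 to -156. The FOXO letters GTAAACA, held by 3.17% of windows, were found in Igfn1 alone, on the opposite strand at -239 to -233. Ppp1r3c also held the clock E-box letters CACGTG (6.02% of windows) at -104 to -99 and an inverted CCAAT (33.8%) at -124 to -120. The searches for AGGTCA (nuclear receptor half-site, 14% of windows) and TATAAA (12.4%) gave no match in these windows. The E-box letters read the same on both strands, and no matches overlapped. Igfn1 and Mest had lower values in soy muscle and Ppp1r3c higher, and a shared regulator of the 3 genes was not tested. The Mest window is the RefSeq start nearest to the deposited gene's first base, 9959 bases away from it and 1 of 3 starts in the table, and its letters describe that start only.

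The 10 genes of smallest p with all controls, chosen after their values were seen, did not overlap between control and soy libraries. This follows in large part from choosing them by p in the same libraries. Of all genes, 5.29% lay above every control in all soy libraries and 4.65% lay below. Sh3rf2, a RING-type ubiquitin ligase with SH3 domains, had the smallest p. It stood at 22.2, 29.4, 31.0 and 24.6 CPM in control mice 1071, 1095, 1120 and 1121 and at 58.7, 68.2 and 90.3 CPM in soy mice 1065, 1073 and 1141. The log2 fold change was 1.43 (SE 0.20, edgeR adjusted p = 0.0516), and it was 1.42 without mice 1071 and 1120 (edgeR adjusted p = 0.131). It passed in 6 of 21 alternative settings and its difference stayed between 1.25 and 1.57 in all of them. Fish and lard muscles had 32.9 to 69.4 CPM, with 1 fish library close to the controls.

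The other 3 of the 10 with higher values in soy muscle were Aldh6a1, Adhfe1 and Pla2g4e. Aldh6a1, the methylmalonate semialdehyde dehydrogenase of valine breakdown, read 103, 162, 140 and 147 CPM in controls 1071, 1095, 1120 and 1121 and 215, 266 and 246 CPM in soy mice (log2 fold change 0.81, SE 0.14). Adhfe1, a mitochondrial hydroxyacid-oxoacid transhydrogenase, read 21.8 to 35.0 CPM against 48.8 to 62.6 CPM (0.91, SE 0.16), and Pla2g4e, a calcium-dependent phospholipase, 23.4 to 32.5 CPM against 37.9 to 50.8 CPM (0.78, SE 0.14). Each of these 3 had an edgeR adjusted p of 0.137, and all fish and lard libraries lay above all controls for all 3. Without mice 1071 and 1120 the differences of Aldh6a1, Adhfe1 and Pla2g4e were 0.65, 0.74 and 0.70. Of the Aldh6a1 reads only 46.4% were unique, and it and Adhfe1 overlap a gene on the other strand, so part of their counts could belong elsewhere.

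Lower values in soy muscle were seen for another 4 of the 10. Chrna10, a nicotinic acetylcholine receptor subunit that overlaps Art1 on the other strand, read 9.79 to 19.3 CPM in controls and 6.92 to 7.42 CPM in soy muscle (log2 fold change -1.07, SE 0.20). Amhr2, the receptor of anti-Müllerian hormone, read 7.17 to 10.7 CPM against 1.56 to 4.29 CPM (-1.63, SE 0.31). Panx1, a channel-forming pannexin, read 5.10 to 8.95 CPM against 3.43 to 3.92 CPM (-1.11, SE 0.21), and Fam234a read 47.5 to 67.2 CPM against 33.1 to 35.8 CPM (-0.69, SE 0.13). Chrna10 was highest in mice 1120 and 1071, and without them its log2 difference was -0.70 (edgeR adjusted p = 0.249). For Amhr2, Panx1 and Fam234a the differences without these mice were -1.69, -0.95 and -0.54.

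The immunoglobulin heavy chain genes Ighg2c and Ighm had lower values in soy muscle in a pattern that did not follow the blood cell markers. Ighg2c, 1 of the 10 genes of smallest p, read 6.30, 3.99, 5.85 and 11.0 CPM in control mice 1071, 1095, 1120 and 1121 and 0.941, 0.232 and 1.51 CPM in soy mice 1065, 1073 and 1141 (log2 fold change -2.95, SE 0.55, edgeR adjusted p = 0.137). Ighm, the mu heavy chain, read 148, 132, 226 and 319 CPM in the same controls and 32.6 to 75.0 CPM in the soy mice (-1.78, SE 0.44, edgeR adjusted p = 0.141). Both were highest in mouse 1121, which has few blood reads, and without mice 1071 and 1120 the differences were -3.10 and -1.91. The kappa light chain gene Igkc, in contrast, read 10.2 and 40.2 CPM in mice 1071 and 1120 and 0.769 and 0.805 CPM in mice 1095 and 1121, against 0.0753 to 2.78 CPM in soy muscle. Jchain and Igha followed Igkc, with 4.50 and 14.2 CPM and 5.81 and 24.7 CPM in mice 1071 and 1120 and at most 0.403 CPM in the other controls.

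**Figure D3:**
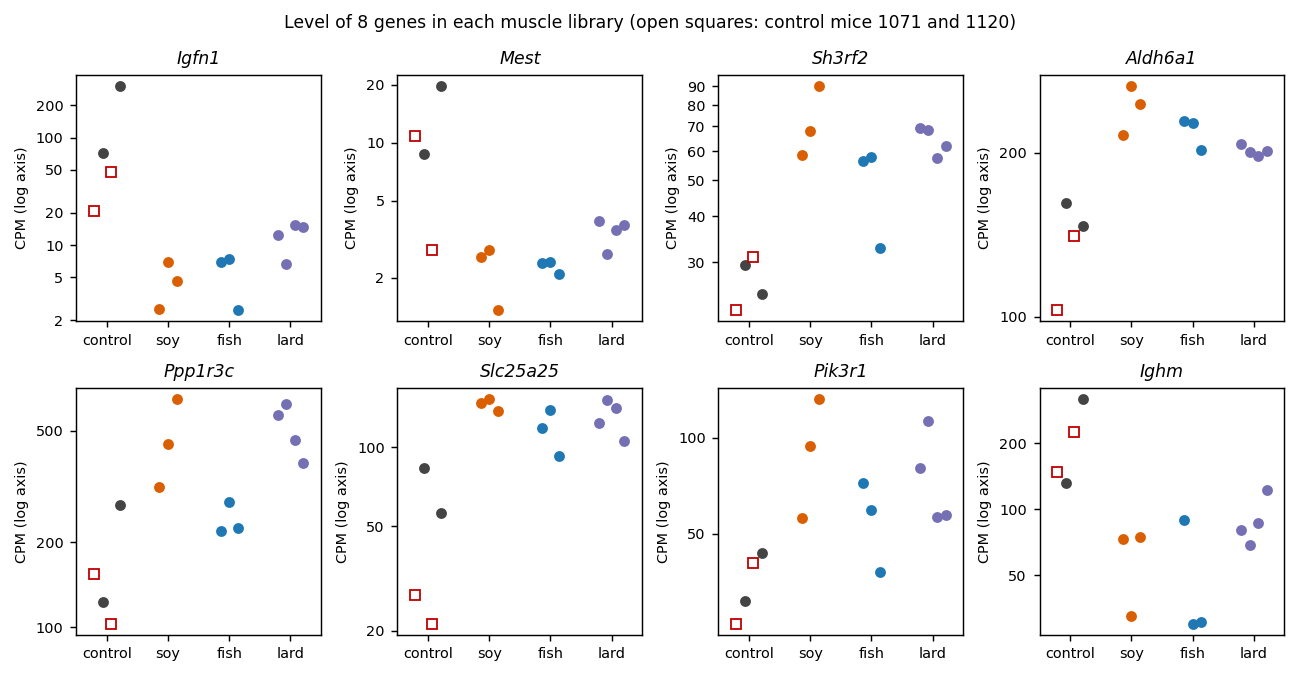
Normalised CPM (log axis) of 8 genes in each of the 14 muscle libraries by diet label; each point is 1 library and open squares are control mice 1071 and 1120. For all 8 genes no soy library overlaps a control, as in Igfn1 with 20.9 to 304 CPM in control and 2.55 to 7.01 CPM in soy muscle. The 8 genes were chosen by their values in these libraries, so this follows in part from the choice. Of all genes, 5.29% lay above every control in all soy libraries and 4.65% lay below.

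Signalling genes that respond to fasting and glucocorticoid made up the pathway list with the highest median when all controls were used. Of 23 tested members of the 24-gene glucocorticoid list, 11 were higher and 1 lower at an unadjusted p under 0.05, beside 7.91% and 9.53% of all genes, none passed the adjusted threshold, and the median log2 fold change was 0.59, beside -0.017 for all genes. Without mice 1071 and 1120 the counts were 6 and 0 (5.13% and 4.61% of all genes) with a median of 0.47. The 1 lower member, Lcn2, is also a neutrophil granule gene. Pik3r1, the regulatory subunit of phosphoinositide 3-kinase, read 26.2, 30.8, 40.6 and 43.6 CPM in controls 1071, 1095, 1120 and 1121 and 56.2, 94.3 and 132 CPM in soy mice 1065, 1073 and 1141, with no overlap (log2 fold change 1.41, SE 0.31, edgeR adjusted p = 0.137). Ddit4, the stress-induced inhibitor of mTORC1, read 11.8, 22.0, 19.1 and 18.4 CPM and 52.0, 87.6 and 26.0 CPM in the same order (1.63, SE 0.41, edgeR adjusted p = 0.141), so mouse 1141 was only just above the controls. Glul, glutamine synthetase, read 166 to 337 CPM in controls and 407 to 784 CPM in soy muscle (1.31, SE 0.35), though only 31.6% of its reads were unique.

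The insulin and IGF list, which shares Pik3r1 and Ddit4 with the list above, had 7 of 33 members higher and 1 lower at that level (7.91% and 9.53% of all genes), and 5 and 2 without the 2 mice (5.13% and 4.61%), with medians of 0.18 and 0.12. Sesn1, a sestrin that restrains mTORC1 when leucine is low, read 19.2, 22.0, 30.5 and 24.2 CPM in control mice 1071, 1095, 1120 and 1121 and 35.5, 39.1 and 53.3 CPM in soy mice 1065, 1073 and 1141. The difference was 0.83 (SE 0.18) with all controls and 0.88 (SE 0.19) without the 2 mice, with edgeR adjusted p of 0.137 and 0.221. Its fish and lard range of 22.4 to 38.2 CPM overlapped the controls. Grb14, an adaptor that inhibits the insulin receptor, was the lower member: it read 17.6 to 47.4 CPM in controls and 10.6 to 14.1 CPM in soy muscle (-1.29, SE 0.34, edgeR adjusted p = 0.158).

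The textbook atrophy ligases did not separate the groups. Fbxo32 read 331, 376, 245 and 415 CPM in controls 1071, 1095, 1120 and 1121 and 353, 356 and 357 CPM in soy mice (log2 fold change 0.06, SE 0.23), and Trim63 read 136 to 245 CPM against 189 to 238 CPM (0.15, SE 0.25). The sign of both turned without mice 1071 and 1120, to -0.15 and -0.04. Mstn, the myostatin gene, read 46.0 to 66.9 CPM and 50.9 to 82.1 CPM (0.35, SE 0.21). Of the 20 genes in the atrophy and ubiquitin ligase list, which also holds Igfn1, 1 was higher and 2 were lower at an unadjusted p under 0.05. This is near the 7.91% and 9.53% of all genes. Without mice 1071 and 1120 the counts were 0 and 3, beside 5.13% and 4.61% of all genes. Asb2, a ubiquitin ligase subunit that targets filamins, was the second of the 2 lower members with all controls. It read 298 to 683 CPM in controls and 216 to 371 CPM in soy muscle (-0.72, SE 0.28, edgeR adjusted p = 0.237).

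The amino acid and polyamine metabolism list had more members with higher than with lower values in soy muscle at a small p, with or without the 2 mice. Of 32 genes, 11 were higher and 2 lower at an unadjusted p under 0.05 with all controls, beside 7.91% and 9.53% of all genes, and 12 and 2 without mice 1071 and 1120, beside 5.13% and 4.61%, while the median was only 0.12 and 0.16. No member passed the adjusted threshold. Dbt, the transacylase core of the branched-chain ketoacid dehydrogenase, read 20.3, 23.9, 28.8 and 24.4 CPM in controls 1071, 1095, 1120 and 1121 and 41.1, 41.6 and 31.0 CPM in soy mice 1065, 1073 and 1141 (log2 fold change 0.64, SE 0.14, edgeR adjusted p = 0.137; 0.65 without the 2 mice). Acadsb, the short branched-chain acyl-CoA dehydrogenase of isoleucine breakdown, read 28.0 to 77.7 CPM against 90.1 to 128 CPM (0.90, SE 0.27, edgeR adjusted p = 0.185), with the lowest control in mouse 1071 and 39.3% unique reads. Without the 2 mice its difference was 0.48 (SE 0.17, edgeR adjusted p = 0.390).

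The 2 lower members both belong to polyamine synthesis. Sms, spermine synthase, read 152, 148, 142 and 140 CPM in control mice 1071, 1095, 1120 and 1121 and 91.5, 98.6 and 107 CPM in soy mice 1065, 1073 and 1141 (log2 fold change -0.56, SE 0.14, edgeR adjusted p = 0.141). The control mean was 146 ± 5.36 CPM (SD, n = 4) and the soy mean 99.0 ± 7.81 CPM (SD, n = 3), with no overlap, though only 46.1% of Sms reads were unique. Odc1, ornithine decarboxylase, the entry enzyme of the pathway, read 163 to 192 CPM in controls and 76.5, 82.7 and 161 CPM in soy mice 1065, 1073 and 1141 (-0.74, SE 0.24, edgeR adjusted p = 0.204), so mouse 1141 reached the control level.

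Energy stores and carriers gave 2 of the larger differences. Ppp1r3c, the PTG subunit that brings protein phosphatase 1 to glycogen, read 155, 123, 103 and 272 CPM in controls 1071, 1095, 1120 and 1121 and 316, 449 and 648 CPM in soy mice 1065, 1073 and 1141 (log2 fold change 1.53, SE 0.31, edgeR adjusted p = 0.137; 1.25 without the 2 mice). Its lard libraries lay in the soy range and its fish libraries, from 220 to 278 CPM, near the highest control. Gsk3a, the alpha isoform of the kinase that inhibits glycogen synthase, read 80.7 to 99.2 CPM against 63.8 to 74.0 CPM (-0.31, SE 0.11, edgeR adjusted p = 0.211). Of 18 glycogen genes, 2 were higher and 2 lower at an unadjusted p under 0.05, near the shares of all genes. Slc25a25, the mitochondrial carrier that exchanges ATP-magnesium for phosphate, was chosen after its values were seen: it read 27.3, 83.3, 21.3 and 56.4 CPM in the controls and 148, 152 and 138 CPM in the soy mice (1.63, SE 0.35, edgeR adjusted p = 0.137). The lowest controls were mice 1071 and 1120, and without them the difference was 1.07 (SE 0.21, edgeR adjusted p = 0.214).

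Acaca, Elovl6 and Fasn, genes of fatty acid synthesis, had higher mean values in soy muscle and were highest in mouse 1073. Of 24 genes of fatty acid and triglyceride synthesis, 4 were higher and 0 lower at an unadjusted p under 0.05 (7.91% and 9.53% of all genes), and 6 and 0 without mice 1071 and 1120 (5.13% and 4.61% of all genes), with medians of 0.30 and 0.49. Acaca, acetyl-CoA carboxylase 1, read 26.4, 30.1, 27.0 and 37.6 CPM in controls 1071, 1095, 1120 and 1121 and 40.9, 122 and 72.9 CPM in soy mice 1065, 1073 and 1141 (log2 fold change 1.38, SE 0.32, edgeR adjusted p = 0.137). Elovl6, which elongates palmitate, read 3.42 to 10.1 CPM in controls and 7.46, 40.4 and 18.7 CPM in the soy mice (1.97, SE 0.57, edgeR adjusted p = 0.181). Fasn, fatty acid synthase, read 60.4 to 93.8 CPM and 70.7, 543 and 210 CPM (1.85, SE 0.60, edgeR adjusted p = 0.206). Without mice 1071 and 1120 the differences of Acaca, Elovl6 and Fasn were 1.22, 2.63 and 2.17. For all 3, mouse 1065 was in or near the control range and mouse 1073 was highest. Mouse 1073 also had the highest sum of the 14 white adipocyte markers of the 7 libraries, 2438 CPM against 1017 and 1484 CPM in the other soy mice and 1048 to 2140 CPM in controls; the part of fat cells in these values was not tested. Without mouse 1073 the list's median was 0.10 with all controls and 0.12 without the 2 mice.

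In fat oxidation, Acads and Mlycd had lower values in every soy library than in any control. Acads, short-chain acyl-CoA dehydrogenase, read 77.6, 72.7, 104 and 61.6 CPM in controls 1071, 1095, 1120 and 1121 and 49.1, 46.1 and 43.4 CPM in soy mice 1065, 1073 and 1141 (log2 fold change -0.77, SE 0.18, edgeR adjusted p = 0.137). Mlycd, malonyl-CoA decarboxylase, which removes the inhibitor of carnitine palmitoyltransferase, read 88.2 to 121 CPM against 43.6 to 82.5 CPM (-0.76, SE 0.19, edgeR adjusted p = 0.141). Without mice 1071 and 1120 the differences of Acads and Mlycd were -0.54 and -0.60. In the 37-gene list of fatty acid uptake and oxidation, 1 gene was higher and 5 were lower at an unadjusted p under 0.05, near the 9.53% of all genes that were lower with all controls. Without the 2 mice the counts were 1 and 4, beside 5.13% and 4.61% of all genes. The median was -0.13 in both comparisons. Mgll, monoglyceride lipase, read 54.3 to 80.3 CPM in controls and 33.1, 58.9 and 33.9 CPM in soy mice 1065, 1073 and 1141 (-0.75, SE 0.21, edgeR adjusted p = 0.166), and Fitm2, a lipid droplet protein, 81.8 to 103 CPM against 57.9 to 76.5 CPM (-0.39, SE 0.13, edgeR adjusted p = 0.216). The 18 lipid droplet and lipolysis genes counted 0 higher and 3 lower, where 7.91% and 9.53% of all genes were so. In cholesterol synthesis 5 of 24 tested genes were higher and 1 lower beside the same shares, and the median of 0.16 was -0.03 without soy mouse 1073. Hsd17b7, an enzyme of its later steps, read 4.77 to 12.4 CPM against 10.1 to 22.6 CPM (1.09, SE 0.32), with overlapping groups. Without the 2 control mice its difference was 0.62 (SE 0.30, edgeR adjusted p = 0.529).

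**Figure D4:**
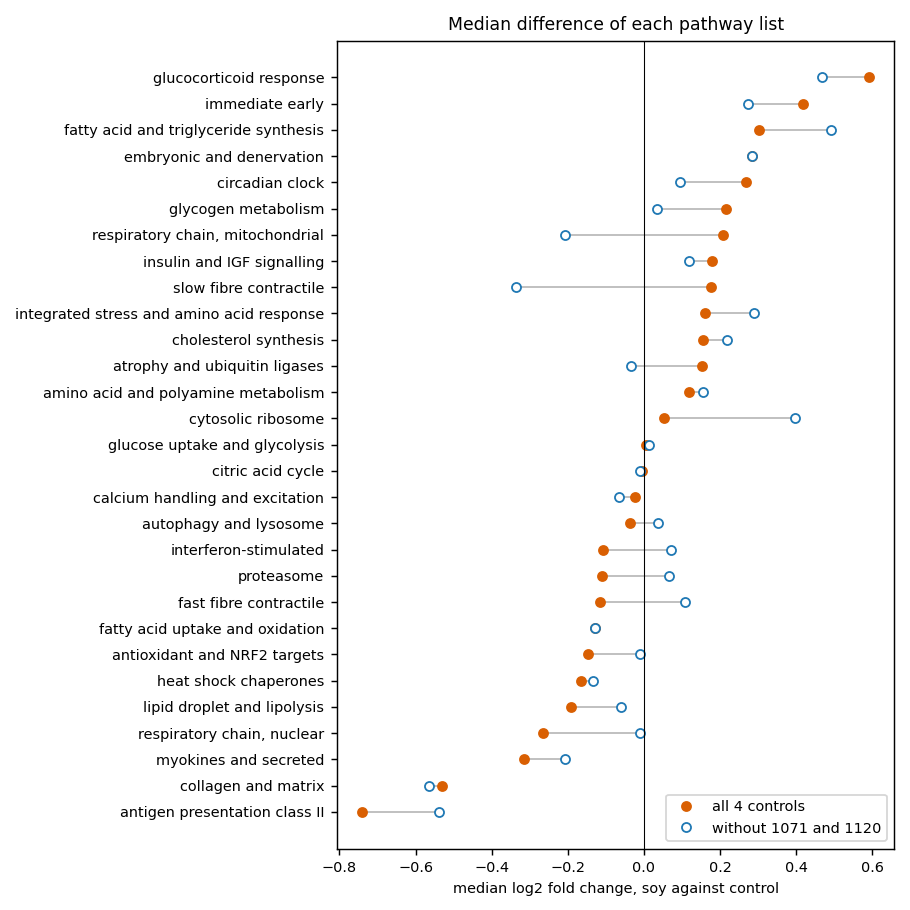
Median log2 fold change, soy against control, over the tested genes of each pathway list, with all 4 controls (filled) and without mice 1071 and 1120 (open). The glucocorticoid list is highest with all controls at 0.59 and class II antigen presentation lowest at -0.74, and the ribosome list moves from 0.05 to 0.40.

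Collagens and matrix genes had the lowest median of the larger lists. Of 31 tested members of this 32-gene list, 1 was higher and 9 were lower at an unadjusted p under 0.05 with all controls, beside 7.91% and 9.53% of all genes, and 2 and 11 without mice 1071 and 1120, beside 5.13% and 4.61%; the medians were -0.53 and -0.56, and no member passed the adjusted threshold. Loxl1, which cross-links elastin, read 18.0, 17.3, 16.3 and 14.6 CPM in controls 1071, 1095, 1120 and 1121 and 8.20, 12.6 and 6.71 CPM in soy mice 1065, 1073 and 1141 (log2 fold change -0.85, SE 0.23, edgeR adjusted p = 0.165). Serpinh1, the collagen chaperone HSP47, read 35.2 to 54.4 CPM against 23.4 to 36.3 CPM, with mouse 1073 overlapping control 1095 (-0.66, SE 0.18, edgeR adjusted p = 0.166). Col3a1, a fibrillar collagen, read 118 to 208 CPM in controls and 77.6, 114 and 21.4 CPM in the soy mice (-1.09, SE 0.48, edgeR adjusted p = 0.269), which is a wide spread within the soy group. Without mice 1071 and 1120 the differences of Loxl1, Serpinh1 and Col3a1 were -0.79, -0.47 and -1.33. Mouse 1073 was the soy library nearest to the controls for all 3 genes, and without it the list's median was -0.82 with all controls and -0.80 without the 2 mice. The 12 fibroblast markers summed to 1821 to 2511 CPM in controls and 1820, 2857 and 1893 CPM in soy mice 1065, 1073 and 1141. With all controls 0 were higher and 3 lower at an unadjusted p under 0.05, beside 7.91% and 9.53% of all genes. Without mice 1071 and 1120 the counts were 2 and 1, beside 5.13% and 4.61%, and the medians were -0.23 and -0.08. The part of fibroblasts in the matrix values was not tested.

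Chaperones of the heat shock response counted 0 higher and 4 lower of 28 at an unadjusted p under 0.05 with all controls, and 0 and 3 without the 2 mice. Of all genes, 9.53% and 4.61% had lower values at that level. Counts this small are not read as a result. Hsph1, an HSP110 nucleotide exchange factor, read 63.9, 56.2, 69.0 and 63.4 CPM in controls 1071, 1095, 1120 and 1121 and 45.4, 41.7 and 46.5 CPM in soy mice (log2 fold change -0.50, SE 0.12, edgeR adjusted p = 0.141), a small but even separation. Bag3, which with HSP70 clears damaged filamin at the Z-disc, read 98.1 to 137 CPM against 55.8 to 91.8 CPM (-0.66, SE 0.20, edgeR adjusted p = 0.185). Without the 2 mice the differences of Hsph1 and Bag3 were -0.42 and -0.52.

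**Figure D5:**
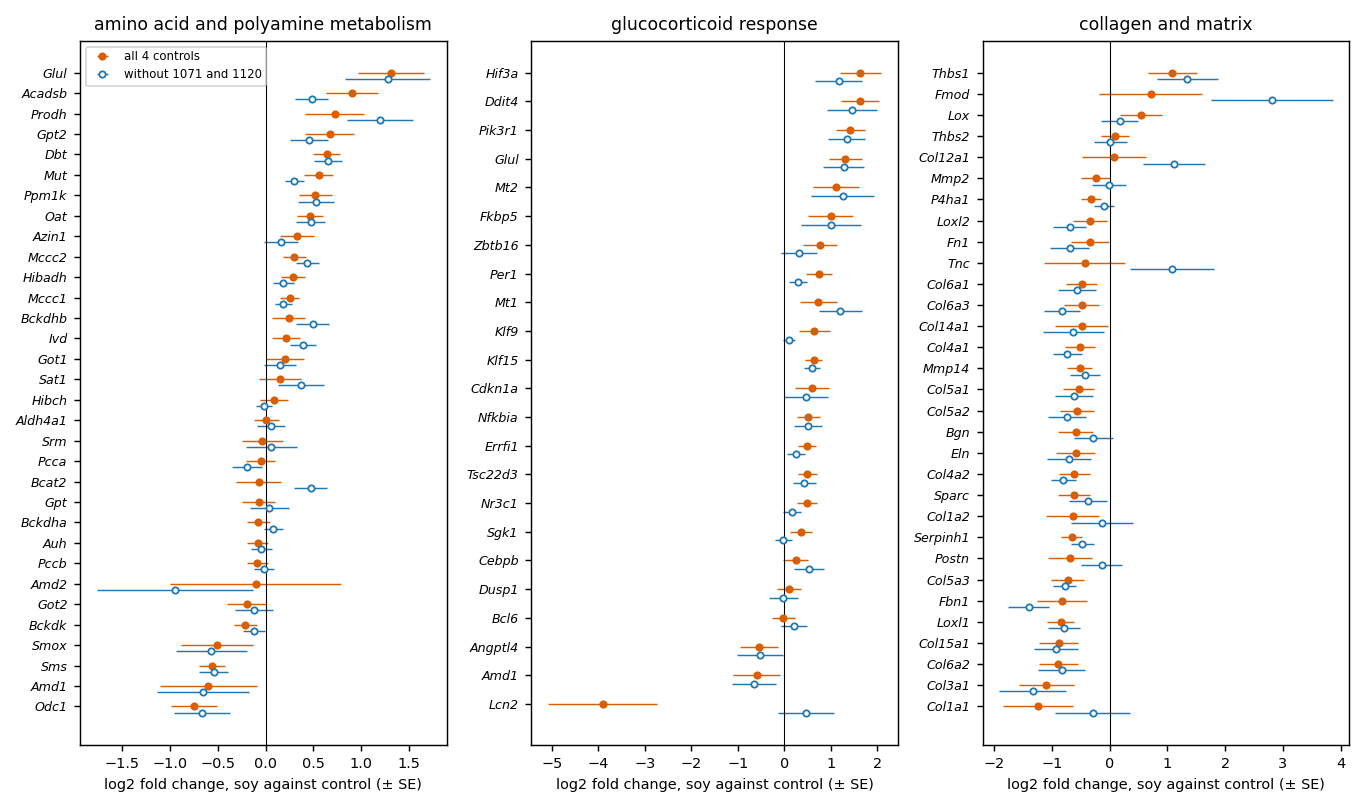
Log2 fold change with its standard error for each tested member of 3 lists, with all 4 controls (filled) and without mice 1071 and 1120 (open). With all controls, 11 genes of the amino acid panel are higher and 2 lower at an unadjusted p under 0.05, and in the matrix panel 1 is higher and 9 lower. The shares of all genes are 7.91% and 9.53%. Lcn2, a neutrophil gene, moves from the far left to above 0 once the 2 mice are left out.

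Clock genes had higher and lower values in soy muscle. Of 19 tested, 5 were higher and 2 lower at an unadjusted p under 0.05, beside 7.91% and 9.53% of all genes. Without mice 1071 and 1120 the counts were only 2 and 1, beside 5.13% and 4.61% of all genes. Per3 read 10.2, 17.8, 10.9 and 30.0 CPM in controls 1071, 1095, 1120 and 1121 and 33.1, 50.8 and 27.5 CPM in soy mice (log2 fold change 1.11, SE 0.32, edgeR adjusted p = 0.179), with mouse 1121 inside the soy range. Without the 2 mice its difference was 0.64 (SE 0.28, edgeR adjusted p = 0.492), and only 43.4% of its reads were unique. Nr1d2, the repressor REV-ERB beta, read 90.7 to 151 CPM against 171 to 182 CPM (0.51, SE 0.16, edgeR adjusted p = 0.194), and without the 2 mice the difference was 0.24. Its relative Nr1d1, REV-ERB alpha, read 118, 113, 46.2 and 58.3 CPM in the controls and 30.3, 47.0 and 52.9 CPM in the soy mice (-0.95, SE 0.33, edgeR adjusted p = 0.214). Nr1d1 split the controls 2 against 2, and it overlaps Thra on the other strand. The labels do not give the hour of killing, and its part in these values was not tested.

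Some lists turned on the choice of controls. With all controls, 0 of 77 nuclear respiratory chain genes were higher and 15 lower at an unadjusted p under 0.05, with a median of -0.27. The shares of all genes were 7.91% and 9.53%. Without mice 1071 and 1120 the counts were 1 and 1, with a median of -0.01, beside 5.13% and 4.61% of all genes. The 78 matched cytosolic ribosomal protein genes behaved the other way. Beside the same shares, their counts were 0 and 0 with a median of 0.05, and 17 and 0 with a median of 0.40 without the 2 mice. Their summed level was 18770, 13150, 22612 and 13091 CPM in controls 1071, 1095, 1120 and 1121 and 18792, 15675 and 17126 CPM in soy mice 1065, 1073 and 1141, so control 1120 lay above every soy library, control 1071 level with the highest of them, and the other controls below the soy range. Blood-cell lists followed the same mice. At the same p level and beside the same shares, 0 of 8 tested erythroid genes were higher and 7 lower, median -2.29. Without mice 1071 and 1120 the erythroid counts were 0 and 0, median 0.27. Of 5 tested neutrophil genes 0 were higher and 4 lower, median -3.45, and 0 and 1 without these mice. Car1, an erythroid carbonic anhydrase, had 4.91, 0.350, 14.2 and 0.403 CPM in the controls and 0.301 to 0.672 CPM in soy muscle. Mmp9, a protease of neutrophil granules, was the neutrophil gene still at a small p: it read 15.2, 9.93, 39.7 and 3.56 CPM in controls 1071, 1095, 1120 and 1121 and at most 2.55 CPM in soy muscle, a difference of -3.45 with all controls and -2.11 (SE 0.77, edgeR adjusted p = 0.392) without the 2 mice.

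Some gene groups varied widely within the soy group. In soy mouse 1065, and in neither other soy mouse, 2 mitochondrial folate enzymes of the integrated stress response list were high: Mthfd2 read 128 CPM there and 2.43 and 4.37 CPM in soy mice 1073 and 1141, against 3.09 to 8.70 CPM in controls. Aldh1l2 read 25.9 CPM in mouse 1065, 5.68 and 5.80 CPM in the other soy mice and 4.08 to 5.11 CPM in controls. The log2 fold change of Mthfd2 was 3.14 (SE 1.22, edgeR adjusted p = 0.236) and turned to -0.59 without mouse 1065. Fish muscles of mice 1123 and 1124 showed the same 2 genes high, at 137 and 281 CPM for Mthfd2 and 26.4 and 54.5 CPM for Aldh1l2. In soy mouse 1073 the 12 Schwann cell and nerve markers summed to 464 CPM, against 116 and 343 CPM in mice 1065 and 1141 and 88.2 to 309 CPM in controls, so 2 of the 3 soy mice were above every control. Of 9 tested, 1 was higher at an unadjusted p under 0.05 with all controls, beside 7.91% of all genes. Without control mice 1071 and 1120, 9 were higher at that level, beside 5.13% of all genes. The medians were 0.70 and 1.54 (0.23 and 1.09 without mouse 1073). The myelin gene Mbp read 72.4, 19.7, 42.3 and 30.0 CPM in the controls and 27.4, 123 and 101 CPM in soy mice 1065, 1073 and 1141. Slow fibre genes summed to 10786 CPM in soy mouse 1141 and to 2618 and 2340 CPM in mice 1065 and 1073, with 1427 to 9121 CPM in controls, and none of the 17 tested reached an unadjusted p under 0.05 in either direction.

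Class II antigen presentation had the lowest median of the pathway lists with all controls, -0.74, with all 8 genes negative and 1 at an unadjusted p under 0.05. At that level 9.53% of all genes were lower. Without mice 1071 and 1120 its median was -0.54 with 0 genes at that level, and the matrix list was lower at -0.56. Cd74, the invariant chain, read 123, 78.3, 113 and 64.6 CPM in controls 1071, 1095, 1120 and 1121 and 34.5, 74.8 and 11.9 CPM in soy mice 1065, 1073 and 1141 (log2 fold change -1.23, SE 0.51, edgeR adjusted p = 0.257), and H2-Ab1 21.5 to 35.6 CPM against 10.6, 28.9 and 4.67 CPM (-1.04, SE 0.50). Without mice 1071 and 1120 the differences of Cd74 and H2-Ab1 were -0.81 (SE 0.60) and -0.77 (SE 0.61). Mouse 1073 was again within the control range. The 15 macrophage markers, which share Cd74, summed to 350 to 605 CPM in controls and to 211, 404 and 200 CPM in soy mice 1065, 1073 and 1141. With all controls 0 were higher and 2 lower at an unadjusted p under 0.05, beside 7.91% and 9.53% of all genes. The part of macrophages in the class II values was not tested.

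Soy muscle was also set against the other restricted diets at the same energy. None of 13104 genes passed edgeR's adjusted threshold for soy against fish (0%), with 288 (2.2%) at an unadjusted p under 0.05, and none for soy against lard (0%), with 400 (3.05%). Only edgeR was run for these 2 comparisons. For the 2 genes that passed against control, the 7 fish and lard libraries had at most 15.5 CPM of Igfn1 and 3.95 CPM of Mest. The Igfn1 values were below every control, but for Mest some lard libraries lay above control 1120, at 2.79 CPM. For Ighm they had 30.0 to 122 CPM, below the lowest control at 132 CPM.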

How the data were processed

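The RNA was extracted with Trizol and made into TruSeq libraries, per the labels' protocols. The authors deposited, for each library and gene, counts of total exon reads, used here as the main measurement, together with RPKM values and a p-value per gene for each comparison; unique exon reads served as an alternative and exon length, in the deposited other columns, for scale. The submitters' processing notes name FastQC and GRCm38; the aligner, the counter and its use of strand are named in no source used here. Of 38124 genes, 36345 IDs matched a GENCODE M21 symbol and 1779 did not. All 14 muscle libraries (12580798 to 27106865 exon reads) were fitted together in edgeR 4.0.16 (R 4.3.3) with TMM scaling, a minimum count of 10 (filterByExpr), the quasi-likelihood test and Benjamini-Hochberg adjustment at 0.05 over all genes; a second fit left out control mice 1071 and 1120. DESeq2 1.42.0 and limma 3.58.1 were alternatives. Fits were also run on simulated counts with known changes, whose recovery is not reported here. Each unchanged gene had the same mean in every simulated library, so the blood reads of mice 1071 and 1120 were not copied. Each library carries its own mouse number, so replicates are mice. No 2 libraries of a diet agreed within sampling noise (lowest chi-square per degree of freedom 10.306). The libraries compared were chosen by their labels, and the gene lists with earlier results of these data known. Named genes were those passing either fit, up to 2 of smallest p per list and the most abundant member of a marker list (Myh4, S100a9). Further genes, said as such or listed here, were chosen after their values were seen. These were all of the 10 of smallest p except Igfn1, and Fasn, Glul, Odc1, Acadsb, Nr1d1, Grb14, Col3a1, Ighm, Igkc, Jchain, Igha, Lcn2, Bglap, Mpo, Tpx2, Slc25a25 and the textbook Fbxo32, Trim63 and Mstn.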

Additional observations from a re-analysis of the deposited data

Results flagged for a closer look

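In the control group of 4, the highest or lowest library was set apart from the other 3 by more than Dixon's critical share of the group's range for 7 of 106 measures examined; chance flags about 1 in 20 groups, and the 3 soy libraries are too few for this check. Control mouse 1071 had 350897 CPM of mature muscle genes, against 186938 to 208964 CPM in the other controls, and 290338 CPM of fast fibre genes, against 146303 to 167874 CPM. Control mouse 1120 had 605 CPM of macrophage markers (350 to 377 CPM in the others), 7.50 CPM of T and NK cell markers (2.15 to 2.80 CPM) and 249 CPM of interferon-stimulated genes (191 to 199 CPM). Control mouse 1121 had 299 CPM of embryonic and denervation genes (250.0 to 258 CPM) and 5.10 CPM of Panx1 (8.50 to 8.95 CPM).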

How the results depend on the processing

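With all controls, the count of genes past the adjusted threshold was 0 and stayed 0 with the 7 libraries alone, limma-voom with or without library weights, a mean of at least 5 CPM, unique reads, library sizes without blood markers and a 1.5-fold test. It was 1 with DESeq2 size factors, with the newer quasi-likelihood form (chosen after seeing the data) and with no filter (Sh3rf2 each time), 1 with a neutrophil covariate (Igfn1), 2 without mice 1071 and 1120, and 242 with DESeq2's Wald test. Leaving out 1 library gave 0 to 9. The 2 calls made without mice 1071 and 1120 became 0 with the 5 libraries alone and with limma-voom, 1 at a mean of at least 5 CPM (Igfn1), 93 with DESeq2's Wald test and 0 to 5 on leaving out 1 library. The count stayed 0 for soy against fish and against lard in every alternative run. Library numbers were tried as a replicate block, which gave 0 calls with all controls and 0 without the 2 mice. Same-numbered control and soy libraries correlated at 0.06, -0.254 and -0.104, and differently numbered ones between -0.147 and 0.204. With so few libraries, these correlations cannot decide whether the numbers pair the mice. Signs turned for S100a8 (0.092), Car1 (0.41), Hbb-bt (0.017), Fbxo32 (-0.15) and Trim63 (-0.037) without mice 1071 and 1120; for S100a8 (0.48), Car1 (0.89), Hbb-bt (0.58), Fbxo32 (-0.26) and Trim63 (-0.19) with the neutrophil covariate; for Fbxo32 with library weights (-0.084) and without control 1120 (-0.072; 0.16 without control 1121); and for Mthfd2 without soy 1065 (-0.59; 3.72 without soy 1073). The cause of these moves was not tested. With 3 and 4 mice a group, differences in genes of a few CPM are the least precise.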
